A study of Mus musculus with 11 samples.

Results

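The genes that encode the collagen chains were examined in epithelium of the gingiva from langerin-DTR mice. They were taken as every gene with values whose symbol reads Col, a number, a and a number, with Col17a1 left out, which gave 31 of the 19170 genes with values. A further 12 collagen genes were listed without a value in any mouse. By the textbook classes, 10 of the 31 belonged to the fibrillar types, 8 to the basement membrane types, where anchoring fibril and multiplexin chains were included, and 13 to the other types. Of the 31 genes, 21 averaged 10 or more normalized counts over the mice, and the other 10 were measured with a larger counting error.

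Langerin-DTR mice carry the diphtheria toxin (DT) receptor under the control of langerin (Cd207), the lectin that marks Langerhans cells (LCs), so that DT kills the cells that carry langerin. RNA sequencing compared 6 mice injected with DT and 5 injected with PBS, all of the same genotype and, by the study's methods, male. Each mouse was injected at a postnatal age of 17, 24 and 31 days, and its epithelium was collected at an age of 8 weeks. By the study's account LCs had returned by then, so the comparison concerns adult epithelium after LCs were depleted around weaning, not epithelium without LCs. Any langerin-positive cell other than LCs is also exposed to DT in this model. Each library was labelled as a separate sample of its group, and p-values measure the spread between these samples.

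Collagens are triple helices of chains that share a Gly-X-Y repeat. The fibrillar types, chiefly made by fibroblasts, give connective tissue such as the lamina propria its tensile strength. Type IV chains form the sheet of the basement membrane, type VII forms the anchoring fibrils that tie an epithelium to the tissue under it, and the multiplexins Col15a1 and Col18a1 sit in basement membrane zones. Keratinocytes are a known source of Col7a1, Col17a1 and of the Col4a5 and Col4a6 chains, whereas Col1a1, Col1a2 and Col3a1 are textbook fibroblast genes.

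The Col4a1 and Col4a2 genes, which encode the ubiquitous chains of type IV collagen, start head to head on opposite strands of chromosome 8. Their RefSeq start sites lie 21 bases apart, each inside the other gene, so the genes overlap at their starts. The windows from 250 bases before to 50 bases after each start share 78 bases. These 2 windows are given first because the levels of both genes are compared below. They are followed by those of Col7a1, which had the highest level per kilobase of the 31 genes, and of Col1a2. The latter is a fibrillar gene whose value depended on which mice were included. All are RefSeq sequences of GRCm38.p6, read 5′ to 3′ on the strand of the gene, and 24 of the 31 collagen genes had such a window. In the Col4a1 and Col4a2 windows capitals mark the shared bases. In the other windows capitals mark the motifs GGGCGG and CCAAT on either strand (a match on the other strand reads CCGCCC or ATTGG).
Col4a1 (chr8:11312777-11313076, minus strand): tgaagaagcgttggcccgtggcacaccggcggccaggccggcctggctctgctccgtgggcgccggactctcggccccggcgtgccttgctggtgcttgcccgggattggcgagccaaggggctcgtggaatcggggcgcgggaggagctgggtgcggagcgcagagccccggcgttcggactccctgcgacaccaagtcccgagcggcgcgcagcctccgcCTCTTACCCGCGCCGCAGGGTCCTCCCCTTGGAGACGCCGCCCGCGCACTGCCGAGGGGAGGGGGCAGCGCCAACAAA
Col4a2 (chr8:11312555-11312854, plus strand): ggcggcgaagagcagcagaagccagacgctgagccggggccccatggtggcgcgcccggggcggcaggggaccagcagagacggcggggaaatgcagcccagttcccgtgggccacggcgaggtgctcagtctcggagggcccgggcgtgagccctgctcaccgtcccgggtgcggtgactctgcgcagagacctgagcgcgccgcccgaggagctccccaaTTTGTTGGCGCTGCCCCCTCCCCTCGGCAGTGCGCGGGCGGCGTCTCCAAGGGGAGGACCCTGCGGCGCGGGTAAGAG
Col7a1 (chr9:108953336-108953635, plus strand): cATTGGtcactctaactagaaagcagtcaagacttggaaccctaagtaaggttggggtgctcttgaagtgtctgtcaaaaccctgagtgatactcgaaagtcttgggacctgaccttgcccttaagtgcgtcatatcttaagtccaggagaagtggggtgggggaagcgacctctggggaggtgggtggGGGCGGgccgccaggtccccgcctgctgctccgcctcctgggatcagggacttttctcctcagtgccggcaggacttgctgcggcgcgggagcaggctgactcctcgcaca
Col1a2 (chr6:4505368-4505667, plus strand): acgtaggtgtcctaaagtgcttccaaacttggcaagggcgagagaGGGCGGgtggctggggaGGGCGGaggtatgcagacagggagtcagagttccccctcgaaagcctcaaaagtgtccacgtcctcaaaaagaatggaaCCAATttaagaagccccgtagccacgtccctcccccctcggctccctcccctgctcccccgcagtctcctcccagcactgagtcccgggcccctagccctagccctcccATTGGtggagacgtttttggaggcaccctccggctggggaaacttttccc

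GGGCGG, the core of a GC box, was present on either strand in 17 of the 24 collagen windows, against 35.9% of 27025 mouse windows of the same length. CCAAT was present in 8 of 24, against 37.9% of all windows. TATAAA was present in 2 of 24, those of Col3a1 and Col11a2, against 14.2% of all windows. TGANTCA, the AP-1 motif, was present in that of Col6a1, 1 of 24, against 7.93% of all windows. No match of one motif overlapped a match of another in these windows. A match describes the sequence and is not evidence of a bound factor.

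Depth lay between 17509328 and 24325513 reads per mouse, recovered from the deposited values. Keratinocyte transcripts were abundant in every mouse. The keratinocyte list of 10 genes, led by Krt13 and Krt4, summed to between 1864240 and 2065850 normalized counts in PBS mice and between 1916350 and 2129040 in DT mice. This list marks keratinocytes and not the site they came from. Cd207 itself had a mean of 23.9 ± 13.4 (SD, n = 5) in PBS mice and 18.4 ± 1.99 (SD, n = 6) in DT mice, so the mice of both groups had langerin transcripts at this age. PBS 3 and PBS 5 stood apart from the other 9 mice: the list of 5 LC genes summed to 4115 and 3352 in them, against 1378 to 2556 in the others. Of 19170 genes tested with limma, 107 passed an adjusted p of 0.1 (0.558%), with DT compared with PBS.

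The collagen transcripts of this epithelium were dominated by basement membrane chains and Col8a1. Levels between genes are compared here per kilobase of exon, as the mean normalized count over all 11 mice divided by the length of all annotated exons of the gene, so a long annotation lowers the value. The labels name a stranded mRNA kit, while the methods trimmed reads after the guide of QuantSeq, a 3′ end protocol. If reads came from 3′ ends alone, dividing by length would not apply, so the mean counts are given as well for the leading genes. Col7a1 had the highest level, 243 normalized counts per kilobase (mean count 2503). Col8a1, a chain of the short-chain network collagen of type VIII, followed with 207 (mean count 1621), and Col18a1, whose C-terminal fragment is endostatin, with 197 (mean count 1382). Between PBS mice these 3 genes spread over 136 to 343, 147 to 224 and 174 to 216 per kilobase, so their order is not separated beyond the spread between mice. Together they held between 64.3% and 71.4% of all collagen counts in PBS mice and between 68.3% and 71.6% in DT mice. For scale, Col17a1, the hemidesmosome collagen that was left out of the group, stood at 3254 per kilobase.

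**Figure D1:**
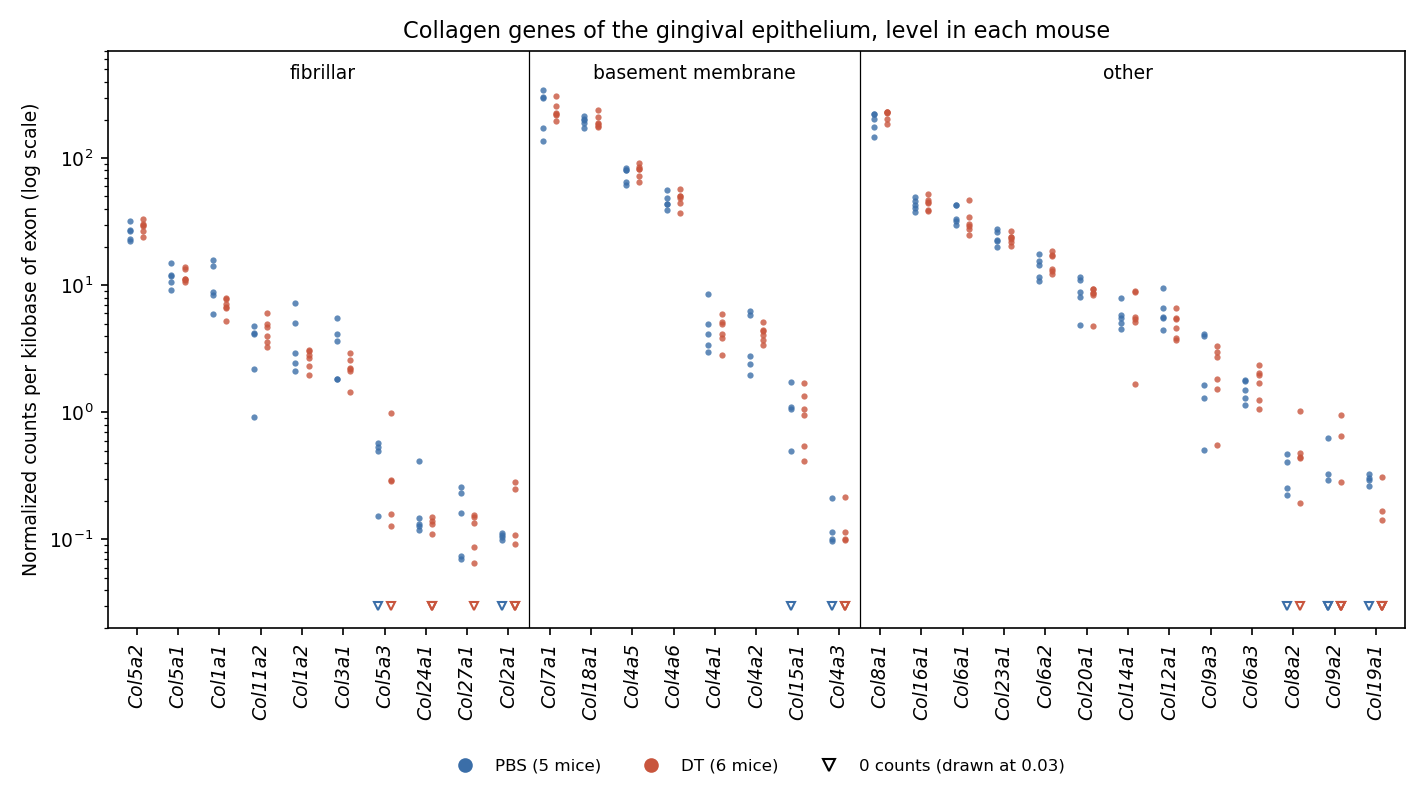
Normalized counts per kilobase of exon on a log axis for the 31 collagen genes, 1 point per mouse (blue PBS, 5 mice; red DT, 6 mice), ordered by mean level within fibrillar, basement membrane and other types; open triangles at the bottom stand for mice at 0. Col7a1, Col18a1 and Col8a1 sit above the others of the 31 genes, and in every gene the points of both groups overlap.

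Among the type IV chains the X-linked pair stood far above the pair on chromosome 8. Col4a5 had a mean level of 77.3 and Col4a6 of 47.2 per kilobase, while Col4a1 had 4.63 and Col4a2 4.03. Their mean counts were 519, 376, 34.6 and 26.7 in the same order. The level of Col4a5 was 16.7 times that of Col4a1, and the level of Col4a6 was 11.7 times that of Col4a2. Col4a3 was at the floor, with 10 reads over all 11 mice and none in 3 of them, and Col4a4 was listed without a value. Col15a1 was also low, at 0.947 per kilobase.

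Fibrillar chains were much less abundant. The highest was Col5a2, a chain of the type V collagen that regulates fibril diameter, at 27.7 per kilobase, and its partner Col5a1 stood at 11.8. Col1a1, the main chain of type I collagen, stood at 8.58 per kilobase. The cartilage chain Col11a2 stood at 3.89, Col1a2 at 3.25 and Col3a1 at 2.77. Col7a1 was thus 28.4 times as high as Col1a1, and Col5a2 was 3.23 times as high. The remaining fibrillar genes, Col5a3, Col24a1, Col27a1 and Col2a1, had means under 2.5 normalized counts, and Col11a1 was listed without a value. Fibrillar genes held between 5.85% and 8.09% of the collagen counts in PBS mice and between 6.18% and 6.98% in DT mice, against 58.3% to 64.5% and 57.6% to 63.6% for the basement membrane genes.

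**Figure D2:**
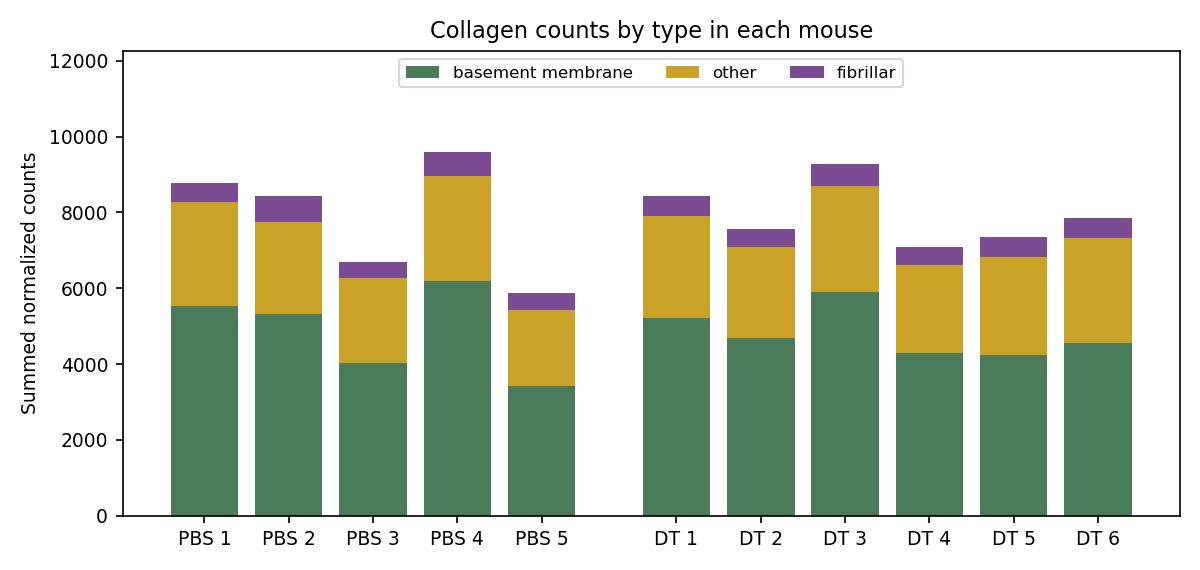
Summed normalized counts of the collagen genes in each mouse (PBS 1 to 5 and DT 1 to 6), stacked by basement membrane, other and fibrillar types. The totals run from 5862 in PBS 5 to 9580 in PBS 4, and every DT mouse lies between these.

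The markers of other cells are given for scale. In the fibroblast list 11 of 12 genes had values and 7 averaged 10 or more, and the list summed to between 2536 and 3137 in PBS mice and between 2550 and 3124 in DT mice. Most of this sum came from Dcn, with 1174 in PBS and 1259 in DT mice, and from Fbln1, Thy1 and Vim. The defining receptor Pdgfra stood at 3.37 and 4.89, Lum and Dpt had means of under 5, and Twist2 had no value. The endothelial list summed to between 80.8 and 129 in PBS mice and between 74.5 and 152 in DT mice, and the bone and tooth and cartilage lists to under 10 in every mouse. The pericyte and smooth muscle list summed to between 5494 and 6426 in PBS mice and between 5421 and 6201 in DT mice. Most of it was Notch3, with a mean of 5256, while Pdgfrb averaged 0.888. The Schwann list summed to between 988 and 1463 over both groups, mostly Mbp, with a mean of 1076. A sum carried by a single gene does not measure its cell type. In bulk tissue, fewer cells of a type and less RNA per cell cannot be told apart.

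The comparison of DT with PBS asked whether the collagen genes of adult epithelium differ after LCs were depleted early in life. None of the 31 collagen genes was called at an adjusted p of 0.1 over all genes, beside 0.558% of all genes. Collagen genes with an unadjusted p under 0.05 numbered 1 lower in DT, which was Col1a1, beside 6.19% of all genes lower, and 0 higher, beside 5.31% of all genes. Among the 21 collagen genes that averaged 10 or more, the values of the groups did not overlap in 0, beside 2.11% of such genes overall. Fold changes were positive in 16 and negative in 15 of the 31 genes, and their median log2 fold change was 0.00012 against -0.011 over all genes. The summed counts of the 31 genes were 7868 ± 1541 (SD, n = 5) in PBS mice and 7924 ± 810 (SD, n = 6) in DT mice. They made up 0.0390% and 0.0387% of all counts. PBS 3 and PBS 5 had the lowest sums, and without them the PBS mean was 8930 ± 592 (SD, n = 3).

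**Figure D3:**
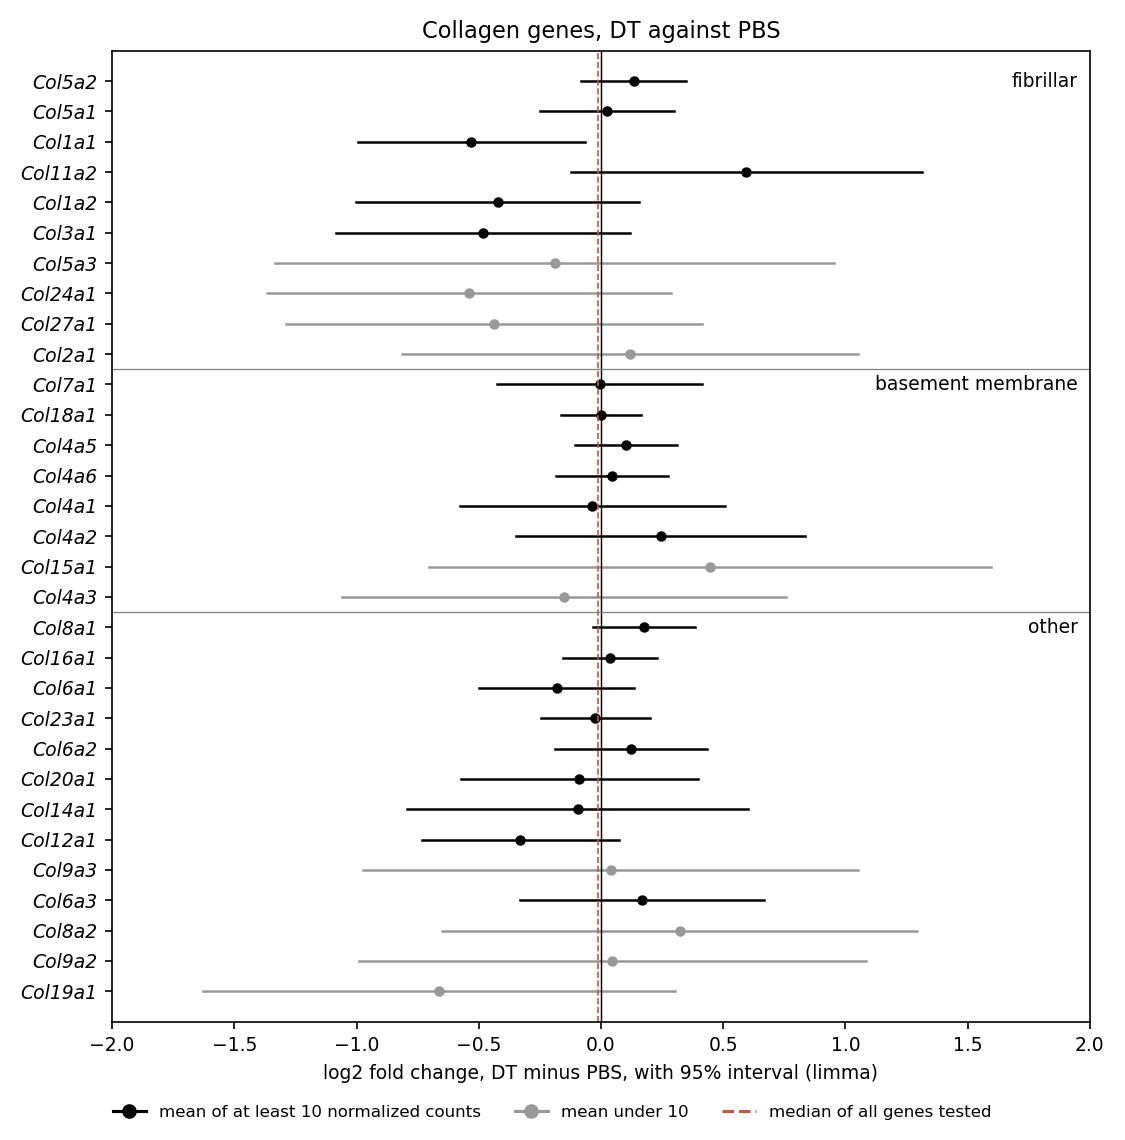
Log2 fold change (DT minus PBS) with its 95% interval from limma for the 31 collagen genes, by type and ordered by level; grey marks genes with a mean under 10 normalized counts and the dashed line the median of all genes. The interval of Col1a1, from -0.99 to -0.067, is the one that lies wholly on one side of 0, and its p did not pass adjustment.

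Of the fibrillar genes, the 3 classical fibroblast chains had lower means in DT mice, and none of these differences passed adjustment. The normalized count of Col1a1 was 57.7, 103, 39.2, 92.9 and 54.6 across PBS 1 to PBS 5 in that order, and its lowest, median and highest value in DT mice were 34.4, 45.2 and 52.4. PBS 2 and PBS 4 were high, PBS 3 lay inside the DT range, and the DT mice were close together. The log2 fold change of Col1a1 was -0.53 with a standard error of 0.22 (adjusted p = 0.361 by limma), and all 6 DT mice lay below the PBS mean. Without PBS 2 this fold change was -0.37 (adjusted p = 0.576 by limma).

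Col1a2, which encodes the second chain of type I collagen, had 36.2, 90.4, 26.2, 62.8 and 30.4 in PBS mice and 24.5, 34.3 and 38.3 as the lowest, median and highest value in DT mice. PBS 2 and PBS 4 were again the highest, and the other 3 PBS mice lay inside the DT range. Its log2 fold change was -0.42 with a standard error of 0.27 (adjusted p = 0.583), and it was -0.17 without PBS 2. For Col3a1, the type III chain that accompanies type I in soft connective tissue, PBS mice had 18.1, 54.4, 18.1, 41.0 and 35.7 and DT mice 14.1, 21.7 and 28.7. PBS 2, PBS 4 and PBS 5 lay above every DT mouse, while PBS 1 and PBS 3 lay inside the DT range. The log2 fold change of Col3a1 was -0.48 with an interval from -1.08 to 0.12 (adjusted p = 0.541). It was -0.28 without PBS 2 and -0.65 without PBS 3 and PBS 5.

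Among fibroblast markers the PBS mice ranked differently from gene to gene. The sum of the list was 2734 in PBS 2 and 2536 in PBS 4, against 2915 to 3137 in the other PBS mice, and most of it is Dcn, Fbln1, Thy1 and Vim. Pdgfra had 3.89 in PBS 2 and 4.55 in PBS 4, against 2.26 to 3.15 in the other PBS mice, and Prrx1 had 119 and 111 against 64.0 to 109.8. Mfap5 had 1.94 and 1.82 in PBS 2 and PBS 4 and was at 0 in the other 3 PBS mice. Pdgfra and Prrx1 were thus highest in the same PBS mice as Col1a1 and Col1a2, while the sum was lowest in them. Pdgfra and Mfap5 rest on few reads, and Prrx1 in PBS 4 was close to the highest of the others. Fbln1 was lowest in PBS 2 and PBS 4 (658 and 663), and Dcn, Thy1 and Vim were lowest in PBS 4. Fbn1 and Fbln2 were lowest in PBS 2 and highest in PBS 4. Of the low genes, Lum was highest in PBS 1 and Dpt in PBS 2. All these orders are those within the PBS mice. Over both groups, Pdgfra was highest in DT 1 (9.17), the mouse with the lowest Col1a1 (34.4). Prrx1 was 117 in DT 1 and 113 in DT 3, against 111 in PBS 4. Dcn, the collagen-binding proteoglycan of fibroblasts, had a log2 fold change of 0.092 (adjusted p = 0.729). Vim had means of 256 in PBS and 163 in DT mice, a log2 fold change of -0.62 (adjusted p = 0.262), and -0.29 (adjusted p = 0.382) without PBS 3 and PBS 5. The part of fibroblast content in the Col1a1, Col1a2 and Col3a1 values was not tested.

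The type V chains differed between groups by less than the spread between mice. Col5a2 had 263, 307, 215, 256 and 222 normalized counts in PBS mice and 231, 282 and 319 as the lowest, median and highest in DT mice. The groups overlapped through most of their range, and the log2 fold change was 0.13 (interval -0.081 to 0.35, adjusted p = 0.654). Col5a1 had 103, 90.4, 100.6, 127 and 77.6 in PBS mice and 90.3, 95.03 and 118 in DT mice, with a log2 fold change of 0.025 (interval -0.25 to 0.30, adjusted p = 0.965). All DT values of Col5a1 lay inside the PBS range.

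Col11a2, a minor fibrillar chain, had the largest positive fold change of the collagen genes. It had 28.3, 29.2, 15.1, 32.8 and 6.30 in PBS mice and 22.5, 29.9 and 41.3 in DT mice. The low values were those of PBS 3 and PBS 5, and the other 3 PBS mice lay inside the DT range. Its log2 fold change was 0.60 (interval -0.12 to 1.31, adjusted p = 0.524), and it was 0.23 without PBS 5 and -0.011 without PBS 3 and PBS 5. Over the 10 fibrillar genes the median log2 fold change was -0.31, and over the 6 with a mean of at least 10 it was -0.20. Of those 6, 3 had a positive and 3 a negative fold change. The other 4 genes had means of at most 2.24 normalized counts.

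**Figure D4:**
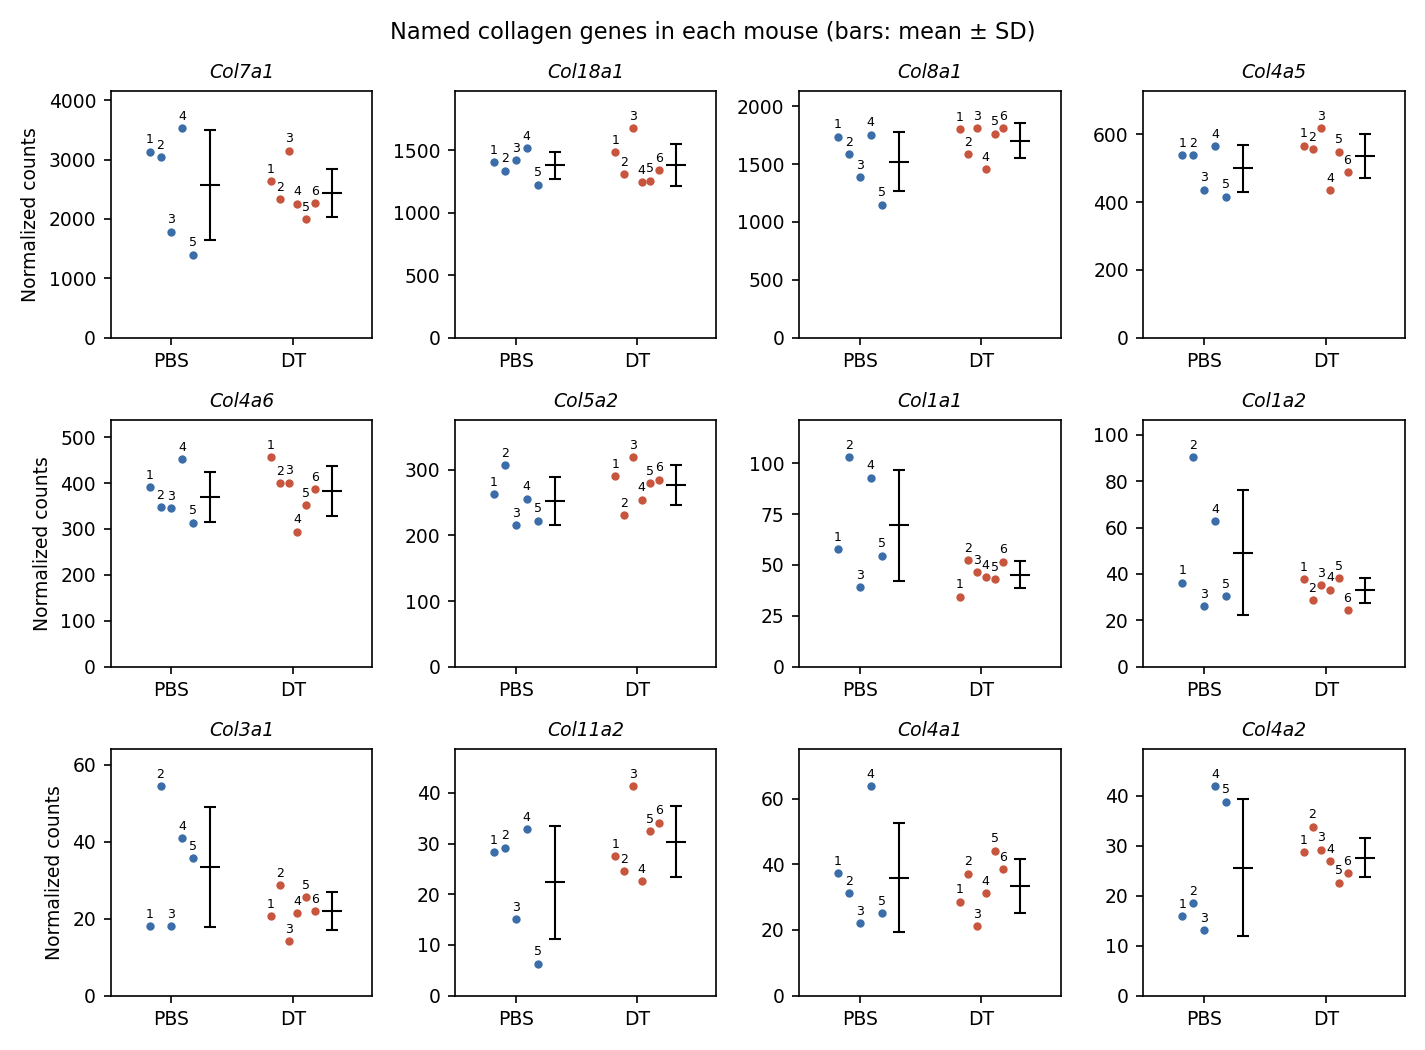
Normalized counts of 12 named collagen genes in each mouse, numbered within its group (blue PBS, 5 mice; red DT, 6 mice), with the mean and SD beside each group in black. PBS 2 and PBS 4 are high for Col1a1 and Col1a2, and PBS 3 and PBS 5 are low for Col7a1 and Col11a2.

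In the basement membrane group no gene had an unadjusted p under 0.05, and the median log2 fold change over its 8 genes was 0.023. Col7a1, the anchoring fibril chain, had 3131, 3043, 1786, 3529 and 1397 normalized counts in PBS mice and 1999.6, 2303 and 3148 as the lowest, median and highest in DT mice. PBS 3 and PBS 5 lay below every DT mouse and PBS 4 above every one. The log2 fold change was -0.0057 with a standard error of 0.20 (interval -0.43 to 0.41, adjusted p = 0.994), and a difference in either direction lies within that interval.

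Col18a1 was the steadiest of the abundant chains, with 1403, 1336, 1420, 1516 and 1223 in PBS mice and 1243, 1324 and 1676 in DT mice. Its ranges overlapped almost fully, and its log2 fold change was 0.00012 (interval -0.16 to 0.16, adjusted p = 0.9995).

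Col4a5, one of the chains mutated in Alport syndrome, had 540, 538, 437, 566 and 417 in PBS mice and 436, 553 and 618 in DT mice. Its neighbour Col4a6 had 390, 347, 345, 452 and 314 in PBS mice and 294, 393 and 456 in DT mice. For both genes PBS 3 and PBS 5 were the lowest PBS mice, and DT 4 was the lowest DT mouse. Their log2 fold changes were 0.10 (interval -0.11 to 0.31) and 0.045 (interval -0.18 to 0.28), with adjusted p values of 0.738 and 0.913.

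Col4a1 had 37.3, 31.1, 22.1, 63.7 and 25.2 in PBS mice and 21.2, 34.2 and 44.2 in DT mice, with a log2 fold change of -0.035 (interval -0.58 to 0.51, adjusted p = 0.977). PBS 4 alone was high, and without PBS 3 and PBS 5 the log2 fold change was -0.36 (adjusted p = 0.449). Col4a2 had 15.8, 18.5, 13.1, 41.9 and 38.8 in PBS mice and 22.6, 27.7 and 33.8 in DT mice, with a log2 fold change of 0.24 (interval -0.35 to 0.84, adjusted p = 0.796), which ranged from 0.053 without PBS 3 to 0.45 without PBS 4. PBS 4 and PBS 5 lay above and the other 3 PBS mice below every DT mouse. Col15a1 had 0 to 10.9 normalized counts and a log2 fold change of 0.45 (interval -0.70 to 1.60, adjusted p = 0.807), which was -0.13 without PBS 1. Col4a3 had 0 to 2.15 normalized counts and a log2 fold change of -0.15 (interval -1.06 to 0.76, adjusted p = 0.931).

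Among the other types Col8a1 had the smallest adjusted p, 0.513. Its values were 1737, 1584, 1387, 1754 and 1149 in PBS mice and 1458, 1781 and 1810 in DT mice. PBS 3 and PBS 5 were below every DT mouse, and the remaining PBS mice lay inside the DT range. The log2 fold change was 0.18 (interval -0.032 to 0.38), and it was 0.078 without PBS 5 and 0.0071 without PBS 3 and PBS 5. Its partner chain Col8a2 was near the floor, at 0.357 per kilobase.

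Col16a1, a fibril-associated chain that also occurs near basement membranes, had 334, 288, 255, 311 and 276 in PBS mice and 261, 305 and 351 in DT mice (log2 fold change 0.038, interval -0.15 to 0.23). Col23a1, a transmembrane collagen, had 128, 131, 158, 114 and 151 in PBS mice and 116, 135 and 153 in DT mice (log2 fold change -0.022, interval -0.25 to 0.20). The groups overlapped throughout for both genes, and the adjusted p values were 0.913 and 0.960.

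Type VI collagen forms beaded microfibrils from Col6a1, Col6a2 and a further chain. Col6a1 had 188, 130, 141, 188 and 146 in PBS mice and 108, 131 and 204 in DT mice, with a log2 fold change of -0.18 (interval -0.50 to 0.14, adjusted p = 0.688). Col6a2 had 129, 96.2, 121, 148 and 90.2 in PBS mice and 101.4, 127 and 154 in DT mice, with a log2 fold change of 0.12 (interval -0.19 to 0.44, adjusted p = 0.802). Both genes overlapped between groups. The level of Col6a1 was 2.32 times that of Col6a2 and 20.9 times that of Col6a3 per kilobase.

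Col12a1, which decorates type I fibrils, had 83.7, 85.5, 67.4, 145 and 101.8 in PBS mice and 56.9, 77.0 and 101.5 in DT mice. PBS 4 was the high mouse, and 5 of 6 DT mice lay below the PBS mean. The log2 fold change was -0.33 (interval -0.73 to 0.073, adjusted p = 0.529), and it was -0.17 without PBS 4. Col19a1, with at most 2.26 normalized counts in any mouse, had a log2 fold change of -0.66 (adjusted p = 0.613), which rests on 12 reads over all mice. The other 6 genes of this class, among them Col20a1, Col14a1 and Col6a3, had log2 fold changes between -0.096 and 0.32. Of the 23 genes of the class that were listed, 10 had no value, among them Col10a1 and Col9a1 of cartilage.

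Leaving out PBS 3 and PBS 5 changed the calls. In that fit of 9 mice 3 of the 31 collagen genes passed, all lower in DT, beside 10.3% of all genes (1967 of 19170). They were Col1a1, with a log2 fold change of -0.86 and an adjusted p of 0.0215, Col7a1, with -0.42 and 0.0311, and Col1a2, with -0.84 and 0.0597. The share of collagen genes called was near that of all genes. In the same fit 21 of 31 collagen genes had a negative fold change, beside 10088 of 19170 genes tested. The median was -0.078 over the 31 genes against -0.015 over all genes. PBS 3 and PBS 5 had the lowest summed counts of the 31 genes, so leaving them out raises the PBS mean of that sum. They were also the 2 PBS mice with the lowest values of each of the 3 called genes, Col1a1, Col7a1 and Col1a2. The calls of these 3 genes, and the difference of Col7a1, thus depended on whether those 2 mice were included. The part played by what set those mice apart was not tested.

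Pairs of chains were compared across the 11 mice on log2(normalized count + 1), with permutation tests adjusted over 12 pairs. Col4a5 and Col4a6, whose start sites lie 1343 bases apart, varied together, with Pearson's r = 0.77 (permutation p = 0.00573, adjusted p = 0.0344) and Spearman's rho = 0.92 (permutation p = 0.00017, adjusted p = 0.00204). Without PBS 5 and DT 4, the mice farthest from the median of Col4a5, r was 0.54. Within the 6 DT mice r was 0.75. Col4a1 and Col4a2, which have nearly the same level and share start-site sequence, had r = 0.30 (permutation p = 0.37, adjusted p = 0.444) and rho = 0.073 (permutation p = 0.838, adjusted p = 0.947), and 0.098 without PBS 4 and DT 3. With 13 to 70 reads per mouse their counting error is larger than that of the X-linked pair, which had 274 to 658.

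Col1a1 and Col3a1 had r = 0.79 (permutation p = 0.00437, adjusted p = 0.0344) and rho = 0.57 (permutation p = 0.0702, adjusted p = 0.368), and Col1a1 and Col1a2 r = 0.78 (permutation p = 0.0126, adjusted p = 0.0504) and rho = 0.33 (permutation p = 0.328, adjusted p = 0.51). Both relations rest on PBS 2 and PBS 4, without which r was 0.30 and -0.25. Within the 6 DT mice r was 0.21 for Col1a1 with Col3a1 and -0.77 for Col1a1 with Col1a2. Col6a1 and Col6a2 had r = 0.50 (permutation p = 0.117, adjusted p = 0.246). Col1a1 had r = -0.43 with Dcn (permutation p = 0.186, adjusted p = 0.28) and -0.57 with Krt14, the basal keratin (permutation p = 0.0673, adjusted p = 0.202). For the pairs of Col1a1 with Col5a2, Col4a1 and Col7a1, of Col4a1 with Pecam1 and of Col7a1 with Krt14, r lay between -0.18 and 0.48 with no adjusted p under 0.2.

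**Figure D5:**
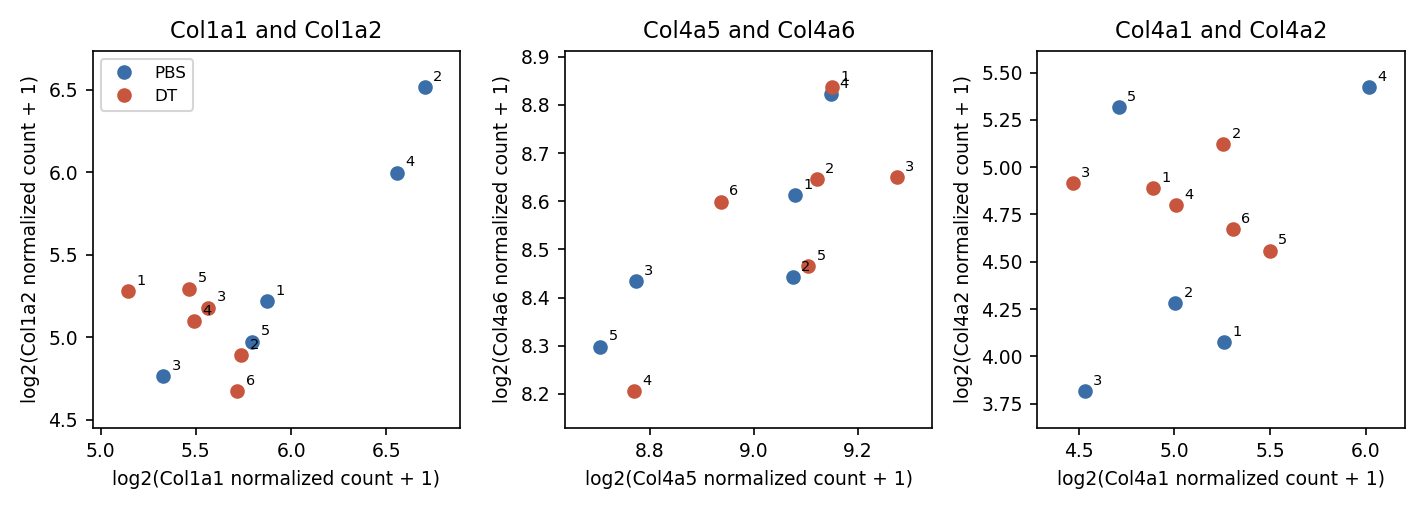
Log2(normalized count + 1) of Col1a1 and Col1a2, of Col4a5 and Col4a6 and of Col4a1 and Col4a2, 1 point per mouse with its number in its group (blue PBS, red DT). PBS 2 and PBS 4 lie apart from the other 9 mice for Col1a1 and Col1a2, whereas Col4a5 and Col4a6 rise together over all mice with r = 0.77.

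The genes that make, cross-link, bind and degrade collagen were counted from 5 lists, of which 62 of 67 genes had values. None of the 62 was called, beside 0.558% of all genes, and at an unadjusted p under 0.05 there were 3 higher and 5 lower in DT, beside 5.31% and 6.19% of all genes. Fold changes were positive in 33 of the 62 genes, beside 47.3% of all genes. They were positive in 16 of the 19 chaperones and modifying enzymes, with a median log2 fold change of 0.064. The median was -0.011 over all genes, and 50.7% were positive with a median of 0.0022 over those that averaged 10 or more. Positive fold changes numbered 7 of 13 for processing and cross-linking and 3 of 8 for receptors. They numbered 3 of 8 for collagenases and inhibitors and 4 of 14 for matrix partners. Serpinh1, the procollagen chaperone HSP47, had 1277, 1322, 1575, 1252 and 1246 normalized counts in PBS mice and 1392, 1580 and 1677 as the lowest, median and highest in DT mice. PBS 3 was the one PBS mouse inside the DT range, and the log2 fold change was 0.24 (standard error 0.067, adjusted p = 0.192). P4hb, a subunit of prolyl 4-hydroxylase, had a log2 fold change of 0.14 (adjusted p = 0.468).

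Of the 13 genes for processing and cross-linking, Loxl4 and Loxl1, both lysyl oxidases, had log2 fold changes of 0.29 (adjusted p = 0.275) and -0.69 (adjusted p = 0.395). Of the 8 receptors, Mrc2, which takes up collagen fragments, and Itga2, an integrin subunit that binds collagen, had 0.20 (adjusted p = 0.400) and -0.19 (adjusted p = 0.434). Of the 8 collagenases and inhibitors, Timp1, an inhibitor of matrix metalloproteinases, and Mmp14, a membrane-bound collagenase, had -0.54 (adjusted p = 0.443) and -0.13 (adjusted p = 0.491). All 6 DT mice lay above the PBS mean for Loxl4 and Mrc2 and below it for Loxl1, Itga2 and Mmp14. These genes were named for the smallest p of their lists, and that choice favours such a placement.

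The 14 matrix partners held the smallest adjusted p of all 5 lists. Hspg2, which encodes perlecan, the heparan sulfate proteoglycan of basement membranes, had 679, 602, 483, 780 and 571 in PBS mice and 426, 448 and 542 in DT mice. PBS 3 lay inside the DT range and the other 4 PBS mice above it. Its log2 fold change was -0.42 with a standard error of 0.10 (adjusted p = 0.121), which did not pass the threshold. Thbs2, a matricellular thrombospondin, had a log2 fold change of -0.37 (adjusted p = 0.370), and Tnxb, a tenascin that binds fibrils, had -1.54 (adjusted p = 0.174) from a mean of 1.79 normalized counts. Without PBS 3 and PBS 5, 7 of the 62 genes passed, beside 10.3% of all genes, 4 of them higher and 3 lower in DT. They were Serpinh1 (log2 fold change 0.29, adjusted p = 0.0136), P4hb (0.23, adjusted p = 0.0528), the lysyl hydroxylase Plod1 (0.36, adjusted p = 0.0781), Timp2 (0.26, adjusted p = 0.0569), Itga2 (-0.33, adjusted p = 0.0291), Hspg2 (-0.57, adjusted p = 0.00541) and Tnxb (-1.69, adjusted p = 0.0674).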

How the data were processed

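Gingival epithelium of 5 PBS and 6 DT mice was sequenced. The labels name poly(A) selection and a stranded mRNA kit, whereas the study's methods processed the reads after the guide of QuantSeq, a 3′ end protocol. Which one made these libraries could not be settled, and it bears on levels per kilobase. The authors counted reads per gene, dropped genes whose counts summed to less than 10, and scaled each mouse by its DESeq2 size factor, so the deposited values are normalized counts. Per the labels, cutadapt 2.10, TopHat2 2.1.1, HTSeq 2.01, DESeq2 1.36.0 and GRCm39 were used, whereas the study's methods name GRCm38. Whether counting used strand is not given in the sources used here. Of 55414 genes listed, 36244 carry no value and were not tested. No per-sample column was set aside.

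Values in every mouse were whole multiples of the value of 1 read (tolerance 0.1 read), which gave the depth. Because the deposited values are normalized, DT was compared with PBS by limma 3.58.1 (R 4.3.3; eBayes with trend) on log2(normalized count + 1) in all 11 mice with no covariate. The p-values were adjusted by Benjamini-Hochberg over 19170 genes, and 0.1 was the threshold. Fold changes on this scale understate those of low genes. Intervals are 95% intervals from limma. Correlations used 100000 two-sided permutations. Exon lengths came from GENCODE release M21 (GRCm38) and matched all 31 genes, and promoter windows came from RefSeq (GRCm38.p6). The scripts were tested on simulated data.

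The genes named were, of the fibrillar types, the 5 with the highest mean and the 3 with the smallest p, all basement membrane genes, the 6 with the highest mean and the 3 with the smallest p of the other types, and the 2 with the smallest p and a mean of at least 10 of each list of related genes. Other genes were named after their values were seen. The members, lists and alternatives were chosen with earlier results of these data known. Alternatives were another pseudocount (10 or 0.5), a filter at a mean of 10, TMM or quantile scaling, array weights, a replicate block, and fits without each mouse or without PBS 3 and PBS 5. Mice with the same number correlated between -0.233 and 0.324 in their deviations from the group means. With few mice and no test, these correlations cannot settle whether the numbers pair the mice. The main fit used no pairing.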

Additional observations from a re-analysis of the deposited data

Results flagged for a closer look

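Among the 21 collagen genes that averaged 10 or more normalized counts, 42 groups of mice were examined for a mouse far from the others, and 1 was found. Col20a1, a fibril-associated chain, had 24.5 normalized counts in DT 5, against 42.9 to 48.3 in the other 5 DT mice, a gap larger than Dixon's critical value for 6 samples. Chance flags about 1 in 20 such groups. PBS 5 had a similar value of 25.2.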

How the results depend on the processing

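Of 21 named collagen genes, 10 kept the sign of their fold change under all 20 alternatives, Col1a1, Col1a2, Col3a1, Col12a1 and Col8a1 among them. No collagen gene was called under any alternative but the fit without PBS 3 and PBS 5, which called 3, with 4 at an unadjusted p under 0.05 and 1967 genes called overall. The number of collagen genes with an unadjusted p under 0.05 was 0 with quantile scaling and 2 with array weights or the replicate block on library numbers. The number of genes called over the whole table was 189 with array weights, 36 with the replicate block on title numbers and 0 with the block on library numbers (1397 at an unadjusted p under 0.05), against 107. Neither block called a collagen gene, and whether the numbers pair the mice was not settled. With a pseudocount of 10 the fibrillar median was -0.069, since low genes weigh less there. The signs that turned were as follows. With quantile scaling they were -0.012 for Col18a1, 0.019 for Col23a1 and 0.058 for Col4a1. With array weights they were -0.010 for Col16a1, -0.013 for Col18a1 and 0.020 for Col23a1. With the block on title numbers they were 0.0079 for Col4a3 and 0.012 for Col7a1, and with that on library numbers 0.049 for Col7a1. Without PBS 3 and PBS 5 they were -0.011 for Col11a2, -0.052 for Col16a1, -0.041 for Col18a1, 0.10 for Col23a1, 0.10 for Col4a3, -0.041 for Col4a5, -0.059 for Col4a6 and -0.078 for Col5a1. The cause was not tested.

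When each mouse was left out in turn, between 27 and 259 genes were called: 27 to 61 without PBS 1, PBS 2, DT 1, DT 3, DT 4, DT 5 or DT 6, and 170 and 259 without PBS 4 and PBS 5. No collagen gene was called in these 11 fits, and between 0 and 4 had an unadjusted p under 0.05. The fold changes of Col1a1, Col1a2 and Col3a1 were smallest without PBS 2 and that of Col12a1 without PBS 4. That of Col1a1 was -0.37 without PBS 2, and its unadjusted limma p was not under 0.05 without PBS 2, PBS 4 or DT 1. The fibrillar median ranged from -0.45 to -0.087. The log2 fold change ranged from -0.13 to 0.76 for Col15a1, -0.0095 to 0.087 for Col16a1, -0.057 to 0.035 for Col18a1, -0.085 to 0.033 for Col23a1, -0.18 to 0.19 for Col4a1, -0.39 to 0.022 for Col4a3, -0.011 to 0.12 for Col4a6, -0.060 to 0.12 for Col5a1 and -0.20 to 0.13 for Col7a1. Tests on counts with edgeR and DESeq2 were not run. The reads recovered from the normalized counts were used only to describe depth and the number of reads behind a value. Depth gives genes with a mean under 10 a larger counting error.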
